A study of Homo sapiens with 22 samples.

Results

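The hepatocyte lineage transcription factors examined here are FOXA1, FOXA2, FOXA3, HNF4A, ONECUT1, PROX1, NR5A2 and GATA4, 8 genes chosen by name for their role in liver development. Of these, 7 had at least 1 bead probe, 11 probes in all out of 24526, and HNF4A RNA was not analysed here. All 7 passed the filter on dim probes with at least 1 probe and are among the 13870 genes tested. RNA was measured on Illumina HumanRef-8 v3 bead arrays in human lines derived from liver tumours, labelled Huh7, HepG2 and Hep3B. Each line was grown in DMEM/F-12 with fetal bovine serum and treated for 48 h with siRNA at 15 nM, directed against COP1 or a negative control. There were 22 arrays in 6 groups, 3 arrays per group for Huh7 and 4 per group for the other lines. COP1, the knocked-down gene, encodes a RING-type E3 ubiquitin ligase that marks transcription factors of the ETS and AP-1 families, among other proteins, for degradation. The labels do not say how many COP1 siRNA sequences were used, and all groups, controls included, received siRNA. Nor do they say whether a group's arrays came from separate cultures. The p-values therefore measure only how these samples spread, which may be technical.

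The liver is specified by a network of transcription factors that bind each other's regulatory regions. FOXA1, FOXA2 and FOXA3 are forkhead proteins that bind nucleosomal DNA early and open liver enhancers for other factors. HNF4A and NR5A2 are nuclear receptors, ONECUT1 is a cut-homeodomain factor, PROX1 is a homeobox factor of hepatoblasts and GATA4 is a zinc finger factor of foregut endoderm. In mature liver they keep plasma protein, lipoprotein and bile acid genes active, and several of them are often reduced in poorly differentiated liver cancer.

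Before the factors themselves, the lines were checked with 9 hepatocyte markers. In Huh7, 9 of the 9 markers were above background on every array, and in HepG2 8 of 9 were. On the arrays labelled Hep3B only 2 of 9 were above background on every array, and ALB, TTR, APOA1, APOA2, TF and FGB, which encode albumin, transthyretin, apolipoproteins A1 and A2, transferrin and fibrinogen beta, were above background on 0 of 8 arrays. An intensity over 21.8 was taken as above background. ALB intensity was 33071, 32178 and 31643 on the Huh7 control arrays and lay between -14.1 and 8.47 on the 8 arrays labelled Hep3B. AFP, the fetal counterpart of albumin, lay between 13260 and 15196 on Huh7 control arrays, between 19972 and 20918 on HepG2 control arrays and between 62.8 and 139 on control arrays labelled Hep3B. Hep3B is generally described as a line that secretes albumin and alpha-fetoprotein, so these arrays go against their label in this respect. They are called the arrays labelled Hep3B here, every direction drawn from them rests on that label, and results of the other lines were also computed without them.

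**Figure D1:**
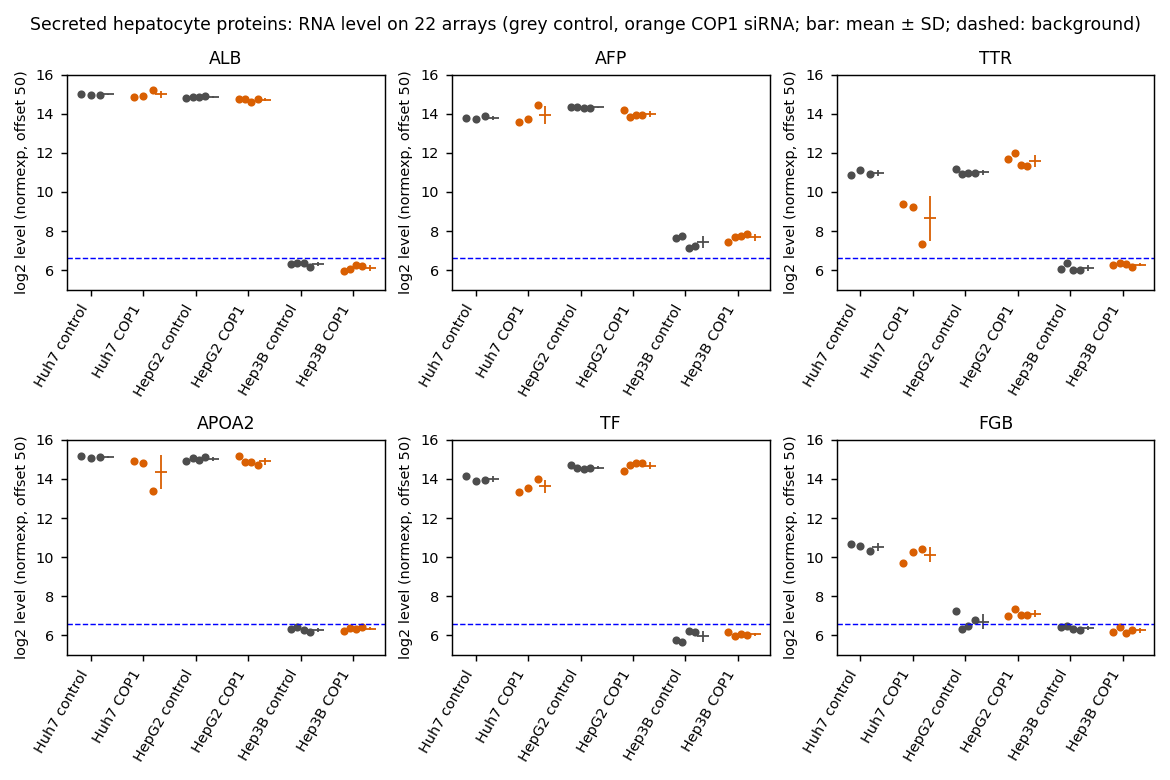
RNA level of 6 secreted hepatocyte proteins on each array, on the log2 scale after background correction (y axis), for the 6 groups (x axis), with the mean and SD of each group. The dashed line is the mean over arrays of the lowest level of a probe above background, 6.60, and on the arrays labelled Hep3B all 6 genes but AFP sit below it.

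Markers of other cell types were mixed. Of 16 such markers, CD14 and CD68 of macrophages were above background on 22 of 22 arrays, PECAM1 of endothelium on 17, LYZ of myeloid cells on 16 and PDGFRB of mesenchymal cells on 16. The leukocyte gene PTPRC and the endothelial gene VWF were above background on 0 of 22 arrays, and the endothelial gene CDH5 and the T cell gene CD3E on 1 of 22 each. COP1 itself, measured by probe ILMN_1661002, was reduced in each line. In Huh7 15.5% of the control intensity remained, in HepG2 25.8% and on the arrays labelled Hep3B 21.8% (limma adjusted p = 3.0e-13, 4.0e-12 and 2.1e-12). The root mean square deviation of an array from its group was 0.12 to 0.27 in log2 units, apart from COP1 siRNA replicate 3 of Huh7 at 0.42. For FOXA1, FOXA2, FOXA3, NR5A2 and PROX1 the change in Huh7 is also given without that array. The Huh7 log2 fold changes of genes in the other lists include it. No 2 arrays held identical values. In bulk RNA, fewer cells of a kind and less RNA per cell cannot be told apart.

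The control cells show how far the 3 lines differ in these factors before COP1 is touched. All 7 measured factors were above background on every Huh7 control array. In HepG2 control cells 5 of the 7 were, and on the control arrays labelled Hep3B 2 of the 7 were, FOXA1 and GATA4. Relative to Huh7 control cells, 6 of 7 were lower and 1, FOXA1, was higher in HepG2, where 28.2% of all genes tested were higher and 26.5% lower. All 7 were lower on control arrays labelled Hep3B than in Huh7 control cells, where 31% of all genes were lower. Between control arrays labelled Hep3B and HepG2 control cells, 5 of 7 were lower and 2 did not pass the test, where 28.5% of all genes were lower. Changes are given as differences of log2 intensity after background correction with an offset of 50, which understates those of dim genes, and as limma estimates ± SE with p-values adjusted over all 13870 genes. A control group of 3 or 4 arrays is shared between these comparisons, so they are not independent of each other.

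FOXA1, the forkhead factor also known as HNF3-alpha (probe ILMN_1766650; chromosome 14, 37589552 to 37595249 in GRCh38.p14), had its highest level in HepG2. Its intensity was 5608, 6250, 6051 and 6240 on the HepG2 control arrays, against 1375, 1557 and 1343 in Huh7 and 50.1, 39.6, 41.0 and 59.2 on those labelled Hep3B. The 3 groups did not overlap. The difference of HepG2 from Huh7 was 2.03 ± 0.16 on the log2 scale (limma adjusted p = 2.0e-11, n = 4 and 3). The arrays labelled Hep3B lay below Huh7 by a log2 difference of -3.61 ± 0.16 (limma adjusted p = 6.3e-17), low but still above background on every control array.

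FOXA2, or HNF3-beta (probe ILMN_1668052; chromosome 20, 22580998 to 22585490), showed the reverse order of Huh7 and HepG2. Its intensity was 9179, 10431 and 8715 on Huh7 control arrays and 3997, 3698, 4223 and 4064 on those of HepG2, which is a log2 difference of -1.22 ± 0.12 for HepG2 (limma adjusted p = 2.7e-09). On the arrays labelled Hep3B FOXA2 was not well above background on any of 8 arrays, so Huh7 control cells were at least 97.8-fold and HepG2 control cells at least 41.9-fold higher. For such bounds, the dim group is set on each array to the lowest level of any probe above background where that exceeds its own, and the fitted test gave a limma adjusted p of 5.3e-25 and 1.4e-24. The other two FOXA2 probes (ILMN_1678728 and ILMN_1763712) were above background on 0 of 22 arrays, and all FOXA2 values here come from the bright probe.

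FOXA3, or HNF3-gamma (probe ILMN_1792733; chromosome 19, 45864326 to 45873797), ranked like FOXA2. Its intensity was 1790, 1756 and 2202 in Huh7 and 631, 759, 713 and 648 in HepG2 control cells, a log2 difference of -1.38 ± 0.18 for HepG2 (limma adjusted p = 2.8e-07). It was above background on 0 of 8 arrays labelled Hep3B, below Huh7 control cells by at least 20.4-fold and below HepG2 control cells by at least 7.85-fold (limma adjusted p = 2.3e-18 and 6.1e-16). FOXA2 and FOXA3 were thus both highest in Huh7 and at background on the arrays labelled Hep3B, while FOXA1 was highest in HepG2.

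ONECUT1, also called HNF6, a factor of liver and bile duct development (probe ILMN_2114812; chromosome 15, 52755053 to 52790336), was measured among control cells in Huh7 only. Its intensity was 228, 158 and 95.4 on the Huh7 control arrays, and it was above background on 0 of 4 control arrays of HepG2 and 0 of 4 of those labelled Hep3B. Huh7 was at least 2.36-fold higher than either (limma adjusted p = 1.2e-07 and 3.7e-08). The spread between the 3 Huh7 control arrays was wide, from 95.4 to 228.

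PROX1, a homeobox factor that hepatoblasts need to migrate in the mouse (probe ILMN_1752622; chromosome 1, 213983151 to 214041510), was measured in Huh7 and HepG2. Its intensity was 1113, 1096 and 791 on Huh7 control arrays and 509, 530, 473 and 616 on HepG2 control arrays. The groups did not overlap, and the log2 difference of HepG2 from Huh7 was -0.82 ± 0.18 (limma adjusted p = 3.0e-04). PROX1 was above background on 0 of 8 arrays labelled Hep3B, at least 10.97-fold lower than in Huh7 and at least 6.23-fold lower than in HepG2 (limma adjusted p = 3.5e-17 and 6.7e-16).

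NR5A2, the nuclear receptor LRH-1 of bile acid and cholesterol genes (chromosome 1, 200027710 to 200177415), was bright in Huh7 and near background in the other lines, on both of its bright probes. On probe ILMN_2366654 its intensity was 1186, 1085 and 979 on Huh7 control arrays and 13.4, 28.8, 9.02 and 39.4 on HepG2 control arrays, above background on 2 of these 4. The log2 difference of HepG2 from Huh7 was -3.57 ± 0.15 (limma adjusted p = 6.2e-17), and on arrays labelled Hep3B, where this probe was at background throughout, NR5A2 was at least 11.9-fold lower than in Huh7. A second probe, ILMN_1811303, gave -3.00 ± 0.18 for HepG2 against Huh7 (limma adjusted p = 8.5e-14 over all probes). The third, ILMN_1688932, was dim, with control intensities of 35.4, 46.1 and 4.20 in Huh7, and gave -0.58 ± 0.16 (limma adjusted p = 0.0037 over all probes). The main probe did not separate HepG2 from the arrays labelled Hep3B (log2 difference of the latter -0.19 ± 0.14, limma adjusted p = 0.27).

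GATA4 (probe ILMN_1749866; chromosome 8, 11676935 to 11760002) was dim in every line. Its intensity was 162, 205 and 194 in Huh7, 70.4, 87.6, 42.6 and 65.3 in HepG2 and from 21.9 to 41.3 on the control arrays labelled Hep3B. Huh7 lay above the other two lines without overlap, by a log2 difference of -0.90 ± 0.12 for HepG2 and -1.26 ± 0.12 for Hep3B (limma adjusted p = 6.1e-07 and 1.0e-09). HepG2 and the arrays labelled Hep3B also did not overlap (log2 difference -0.36 ± 0.11, limma adjusted p = 0.0074).

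**Figure D2:**
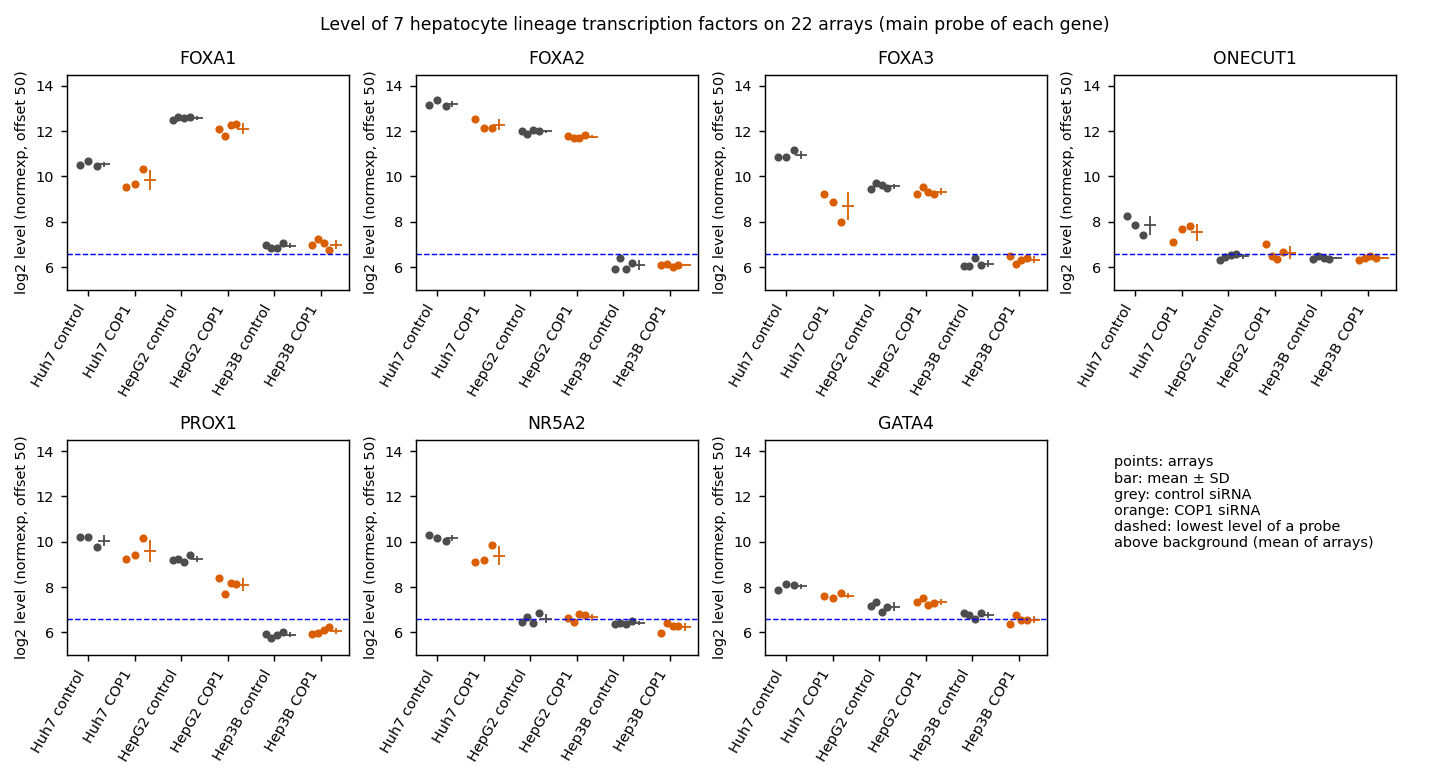
Level of the main probe of each of the 7 measured factors on each of the 22 arrays, on the log2 scale after background correction (y axis), for the 6 groups (x axis), with group mean and SD. The dashed line is the mean over arrays of the lowest level of a probe above background, 6.60. FOXA2, FOXA3, ONECUT1, PROX1, NR5A2 and GATA4 lie below or close to it on arrays labelled Hep3B, and NR5A2 and ONECUT1 lie close to it in HepG2 as well.

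The next question was what COP1 siRNA did to these factors in each line. In Huh7, 5 of 7 fell and 0 rose, where 15.2% of all genes fell and 17% rose. FOXA3 fell most, to 19.1% of its control intensity, followed by FOXA2, NR5A2, FOXA1 and GATA4. ONECUT1 and PROX1 did not pass the test. The median log2 fold change of the 7 was -0.71, and that of all genes was 0.01. Their COP1 siRNA and control arrays did not overlap for the same number of factors, 5, all lower, where 16% of all genes were lower without overlap. All of these Huh7 values share a spread estimated over the 22 arrays, and the median residual SD of a gene was 0.23 in Huh7 alone, 0.16 in HepG2 and 0.14 in Hep3B. With the 2 Huh7 groups fitted alone, 2 factors passed, FOXA2 and FOXA3, and the shares of all genes above do not apply to that fit.

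FOXA3 intensity on the Huh7 COP1 siRNA arrays was 522, 397 and 180, against 1790, 1756 and 2202 on control arrays. The log2 fold change was -2.25 ± 0.19 (limma adjusted p = 2.0e-09, n = 3 and 3). All 3 COP1 siRNA arrays lay far below the controls, and the lowest of them was replicate 3, the array that stood apart. Without it the log2 fold change was -1.90, and over all alternatives the limma adjusted p lay between 5.2e-12 and 0.0039.

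FOXA2 intensity was 5956, 4488 and 4476 after COP1 siRNA against 9179, 10431 and 8715, a log2 fold change of -0.92 ± 0.13 (limma adjusted p = 6.1e-06). Fitted alone, its limma adjusted p in Huh7 was 0.018. FOXA2 kept about the same change without replicate 3, -0.86, and no alternative ended its call.

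For FOXA1, NR5A2, PROX1, GATA4 and ONECUT1, replicate 3 was the highest of the Huh7 COP1 siRNA arrays, nearest to or within the controls. FOXA1 intensity was 656, 734 and 1227 against 1375, 1557 and 1343, a log2 fold change of -0.71 ± 0.17 (limma adjusted p = 0.0021), or -0.96 without replicate 3. Its limma adjusted p was 0.088 when Huh7 was fitted alone. NR5A2 intensity on the main probe was 475, 505 and 851 against 1186, 1085 and 979, a log2 fold change of -0.79 ± 0.16 (limma adjusted p = 0.00046), or -1.03 without replicate 3. Its limma adjusted p was 0.058 when Huh7 was fitted alone. On the second probe the values were 285, 301 and 639 against 640, 560 and 595, so replicate 3 fell inside the control range there, and the log2 fold change was -0.55 ± 0.19 (limma adjusted p = 0.032 over all probes). On the third, dim probe it was -0.0074 ± 0.17 (limma adjusted p = 0.98 over all probes).

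PROX1 intensity in Huh7 was 522, 608 and 1068 after COP1 siRNA against 1113, 1096 and 791, and the groups overlapped. Its log2 fold change of -0.46 ± 0.19 did not pass (limma adjusted p = 0.066), while without replicate 3 it was -0.74 and passed (limma adjusted p = 7.0e-04). GATA4 intensity was 120, 108 and 137 against 162, 205 and 194, a log2 fold change of -0.42 ± 0.13 (limma adjusted p = 0.017). That call was lost when Huh7 was fitted alone (limma adjusted p = 0.13), with array quality weights (0.079) and without COP1 siRNA replicate 2 (0.058), control replicate 2 (0.068) or control replicate 3 (0.053). ONECUT1 intensity was 63.0, 133 and 148 against 228, 158 and 95.4, with overlapping groups (log2 fold change -0.30 ± 0.18, limma adjusted p = 0.21). Without control replicate 3, the lowest control, it was -0.52 (limma adjusted p = 0.041).

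The NR5A2 gene is shown here with the sequence before its 2 RefSeq start sites, because it was bright in Huh7 alone and fell there together with FOXA genes. FOXA3, the factor with the deepest fall, is shown for comparison. The 250 bases upstream of each start were searched on both strands for 5 motifs, and no 2 matches overlapped in these windows. The motif taken for forkhead proteins of the FOXA type was TGTTTAC. For ONECUT1 the letters searched were ATTGAT, a core that occurs in 5.58% of the windows described next. GATA factors were represented by AGATAA. The nuclear receptor NR5A2 was represented by CAAGGTCA, present in 1.14% of windows, and HNF4A by CAAAGTCCA, present in 0.325%. Capitals mark matches, and the sequences run 5′ to 3′ on the gene's strand, from RefSeq on GRCh38.p14.
NR5A2 first start, chr1:200027460-200027709, plus strand: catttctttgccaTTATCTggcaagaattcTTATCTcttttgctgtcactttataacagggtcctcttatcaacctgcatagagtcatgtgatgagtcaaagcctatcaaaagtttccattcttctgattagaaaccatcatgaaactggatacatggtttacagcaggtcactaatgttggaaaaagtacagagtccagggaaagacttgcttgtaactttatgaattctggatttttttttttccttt
NR5A2 second start, chr1:200042341-200042590, plus strand: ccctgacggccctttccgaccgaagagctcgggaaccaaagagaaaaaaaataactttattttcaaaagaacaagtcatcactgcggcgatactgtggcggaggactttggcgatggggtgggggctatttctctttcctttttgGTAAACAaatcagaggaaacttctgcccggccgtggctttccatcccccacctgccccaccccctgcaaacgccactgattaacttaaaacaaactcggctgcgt
FOXA3, chr19:45864076-45864325, plus strand: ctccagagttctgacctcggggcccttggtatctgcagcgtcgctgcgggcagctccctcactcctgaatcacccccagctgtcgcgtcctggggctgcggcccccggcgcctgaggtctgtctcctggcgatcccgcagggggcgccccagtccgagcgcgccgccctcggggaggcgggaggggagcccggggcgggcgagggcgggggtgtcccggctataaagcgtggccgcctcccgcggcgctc

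The window of the first NR5A2 start held 2 AGATAA matches, both on the minus strand and beginning 237 and 220 bases before the start. AGATAA occurs in 9.17% of the 35116 RefSeq windows searched. The window of the second NR5A2 start held 1 TGTTTAC match on the minus strand, 105 bases before the start, a motif found in 2.98% of windows. The windows of FOXA1, FOXA3 and ONECUT1 held 0 of the 5 motifs. These 3 were rich in G and C, at 67.2%, 75.2% and 76.8% of bases, against 36% and 50.8% for those of NR5A2 and a median of 58% over all windows. The HNF4A windows, not shown, held ATTGAT and AGATAA matches. No window of FOXA2, PROX1 or GATA4 was examined. A match is a description of letters in a window and says nothing of binding in these cells, and no match says only that these letters are not there.

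In HepG2, 2 of 7 factors fell and 0 rose, where 9.52% of all genes fell and 9.06% rose. PROX1 fell most, to 38.6% of its control intensity, and FOXA1 fell to 73.0%. PROX1 intensity was 267, 132, 211 and 210 after COP1 siRNA against 509, 530, 473 and 616, a log2 fold change of -1.13 ± 0.16 (limma adjusted p = 1.3e-05, n = 4 and 4). The highest COP1 siRNA array lay well below the lowest control, and over all alternatives the limma adjusted p lay between 7.8e-09 and 5.0e-04. FOXA1 intensity was 4317, 3440, 4923 and 4959 against 5608, 6250, 6051 and 6240, a log2 fold change of -0.46 ± 0.15 (limma adjusted p = 0.027). The groups did not overlap, but the call was lost in some alternatives, among them the fit without COP1 siRNA replicate 2 (limma adjusted p = 0.13) or replicate 1 (0.057) and without control replicate 2, 3 or 4 (0.065, 0.053 and 0.068). It was also lost without the arrays labelled Hep3B, where 1 factor, PROX1, passed.

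FOXA2 in HepG2 was lower on all 4 COP1 siRNA arrays, at 3429, 3240, 3237 and 3591 against 3997, 3698, 4223 and 4064, but its log2 fold change of -0.24 ± 0.11 did not pass (limma adjusted p = 0.16). With FOXA1 and PROX1 this makes 3 of 7 factors that were lower without overlap, where 12.3% of all genes were. FOXA3 overlapped, with 523, 669, 565 and 525 against 631, 759, 713 and 648 (log2 fold change -0.24 ± 0.17, limma adjusted p = 0.36). GATA4 was 89.2, 108, 73.9 and 82.5 against 70.4, 87.6, 42.6 and 65.3 and did not pass (log2 fold change 0.21 ± 0.11, limma adjusted p = 0.21). NR5A2 and ONECUT1 were dim in both HepG2 groups, with 3 and 2 of 4 COP1 siRNA arrays above background, and log2 fold changes of 0.06 ± 0.14 and 0.17 ± 0.16 (limma adjusted p = 0.84 and 0.54). The median log2 fold change of the 7 in HepG2 was -0.24, against 0.02 over all genes.

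On the arrays labelled Hep3B, 0 of 7 factors changed by limma, where 16.3% of all genes did, and 0 had an unadjusted p under 0.05. For 5 of the 7, namely FOXA2, FOXA3, ONECUT1, PROX1 and NR5A2, the main probe was at background on all 8 arrays, so that no change could be measured. FOXA1 was 49.1, 74.5, 57.9 and 32.5 after COP1 siRNA against 50.1, 39.6, 41.0 and 59.2, with a log2 fold change of 0.06 ± 0.15 (limma adjusted p = 0.86). GATA4 was 8.34, 33.9, 17.8 and 18.8 against 21.9 to 41.3, above background on 1 of 4 COP1 siRNA and 4 of 4 control arrays, and its log2 fold change of -0.21 ± 0.11 did not pass (limma adjusted p = 0.24).

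**Figure D3:**
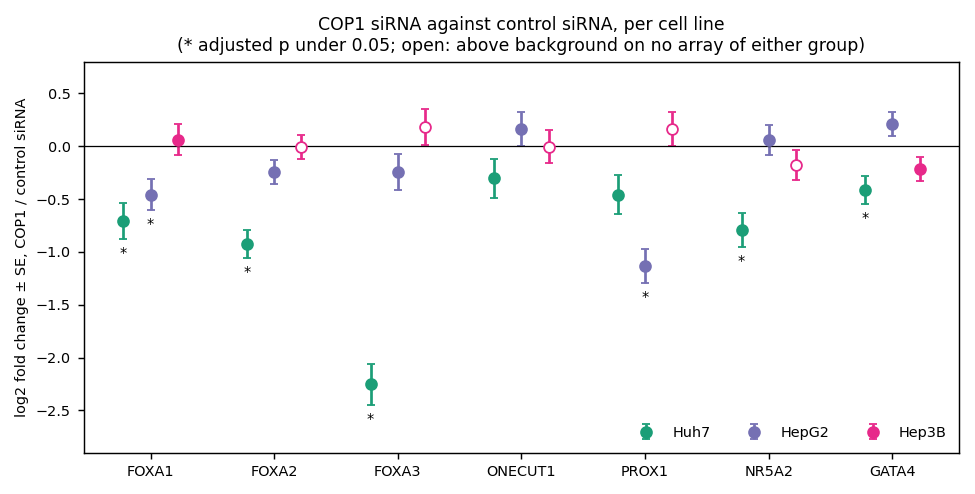
Log2 fold change of COP1 siRNA against control siRNA (y axis, ± SE) for the main probe of each measured factor (x axis), in Huh7, HepG2 and on arrays labelled Hep3B. Stars mark an adjusted p under 0.05 and open points mark factors above background on no array of either group; 5 factors carry a star in Huh7, 2 in HepG2 and 0 in Hep3B.

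Whether the change itself differed between lines was tested for each factor. Each test of the 3 pairs of lines shares a line with another. HepG2 differed from Huh7 for 5 of 7 factors (26.1% of all genes), Hep3B from Huh7 for 3 (14.7%) and Hep3B from HepG2 for 1 (19.8%). Without Huh7 COP1 siRNA replicate 3 these counts were 5, 5 and 4, with PROX1 and NR5A2 added for Hep3B against Huh7 (limma adjusted p = 0.0019 and 8.4e-04) and FOXA1, FOXA3 and GATA4 for Hep3B against HepG2 (0.013, 0.039 and 0.035). In that fit the Hep3B minus HepG2 differences of FOXA1, FOXA3 and GATA4 stayed at 0.52, 0.43 and -0.42. For these only the estimated spread and the adjustment changed. The Hep3B against HepG2 count was 2 without HepG2 control replicate 2, Hep3B COP1 siRNA replicate 2 or 4, or Hep3B control replicate 3. No share of all genes is given for these fits with an array left out. On their main probes FOXA2, FOXA3, ONECUT1, PROX1 and NR5A2 were at background on all 8 arrays labelled Hep3B, and FOXA1 and GATA4 were dim. For those at background, the differences that involve Hep3B hold no measured response of that line. The F test over the 3 lines passed for 6 of 7, where 34.1% of all genes passed, with a limma adjusted p of 2.3e-07 for FOXA3, 5.0e-04 for PROX1, 7.2e-04 for FOXA2, 0.0091 for NR5A2, 0.014 for GATA4 and 0.020 for FOXA1. ONECUT1 did not pass (0.28). The fall of FOXA3 was larger in Huh7 than in HepG2 by 2.01 ± 0.25 on the log2 scale (limma adjusted p = 3.1e-06), and that of FOXA2 by 0.68 ± 0.17 (0.0047). NR5A2 and GATA4 also had a lower change in Huh7 than in HepG2, by 0.85 ± 0.21 and 0.63 ± 0.17 (limma adjusted p = 0.0046 and 0.0088). On the second NR5A2 probe that difference was 0.70 ± 0.25 (limma adjusted p = 0.045 over all probes). In HepG2 NR5A2 lay near background, with the main probe above it on 2 of 4 control and 3 of 4 COP1 siRNA arrays. A fall of NR5A2 in HepG2 could therefore hardly have been measured. The difference of FOXA1 between HepG2 and Huh7, 0.25 ± 0.22, did not pass (limma adjusted p = 0.44), while without Huh7 COP1 siRNA replicate 3 it was 0.50 and passed (0.047). PROX1 alone had the lower change in HepG2, by -0.68 ± 0.25 (limma adjusted p = 0.047), a difference lost in 23 of 34 alternatives. Among these were array weights (-0.37, limma adjusted p = 0.32), the fit without Huh7 COP1 siRNA replicate 3 (-0.40, 0.17), the fit without all arrays labelled Hep3B (0.11), and the fits without any 1 of those 8 arrays (0.051 to 0.055). COP1 itself fell further in Huh7 than in HepG2, by 0.63 ± 0.16 (limma adjusted p = 0.0063), and its part in these differences was not tested.

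Across the 6 groups, the levels of each factor ranked as follows. FOXA1 ran from HepG2 control, HepG2 COP1 siRNA, Huh7 control and Huh7 COP1 siRNA, with no overlap between neighbours, down to the 2 groups labelled Hep3B, which overlapped each other. FOXA2 ran from Huh7 control over Huh7 COP1 siRNA, HepG2 control and HepG2 COP1 siRNA, again with no overlap between neighbours, to background. For FOXA3, COP1 siRNA moved Huh7 from above HepG2 to below it, as the Huh7 COP1 siRNA arrays, at 180 to 522, lay below the HepG2 COP1 siRNA arrays, at 523 to 669, the nearest values of the 2 groups differing little. For PROX1, Huh7 control, Huh7 COP1 siRNA and HepG2 control each overlapped the next, and HepG2 COP1 siRNA lay apart below them. For GATA4, Huh7 control lay apart at the top, and Huh7 COP1 siRNA, HepG2 COP1 siRNA and HepG2 control each overlapped the next.

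Other liver transcription regulators were examined as a list of 35, of which 29 had a probe and 27 were tested. In Huh7 18 fell, 1 rose and 8 did not pass, against 15.2% of all genes falling, and the list's median log2 fold change was -0.45 against 0.01 for all genes. CEBPA, a C/EBP factor of hepatocyte differentiation, had a log2 fold change of -2.26 ± 0.16 (limma adjusted p = 6.2e-11), from 8330 ± 205 to 1745 ± 583 in mean intensity (SD, n = 3 each). NR0B2, the nuclear corepressor SHP and a known target of NR5A2, had one of -2.24 ± 0.18 (limma adjusted p = 9.7e-10), from 879 ± 54.8 to 134 ± 61.1. ZFPM1, or FOG1, a partner protein of GATA factors, and CEBPB, another C/EBP factor, also fell (log2 fold changes -1.14 ± 0.14 and -1.26 ± 0.18, limma adjusted p = 8.6e-07 and 6.7e-06). With the 2 Huh7 groups fitted alone 5 members of the list passed, a fit for which no share of all genes is given.

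In HepG2, 5 of these 27 regulators fell and 2 rose, where 9.52% of all genes fell and 9.06% rose, with a median of 0.0001 against 0.02 for all genes. NFIL3, a bZIP repressor, had a log2 fold change of -1.20 ± 0.18 (limma adjusted p = 1.7e-05). Those of the T-box factor gene TBX3 and the PAR bZIP gene HLF were -0.57 ± 0.11 and -0.79 ± 0.16 (3.0e-04 and 6.2e-04), while DBP, another PAR bZIP factor, rose by 0.51 ± 0.11 (0.0014). CEBPA, at 8977 ± 452 in control and 7995 ± 581 in COP1 siRNA cells, did not pass in HepG2. On the arrays labelled Hep3B, 2 of 27 fell, NFIL3 and CEBPD (log2 fold changes -0.75 ± 0.18 and -0.50 ± 0.16, limma adjusted p = 0.0040 and 0.035), where 7.88% of all genes fell, and the median was -0.08. CEBPA and NR0B2 were at background there.

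A list of 45 hepatocyte genes known as downstream of liver factors, 41 with a probe and 33 tested, was read beside the factors. In control cells, 27 of 41 were above background on every Huh7 array, 30 on every HepG2 array and 9 on every array labelled Hep3B. In Huh7, 12 of 33 fell, 1 rose and 20 did not pass, where 15.2% of all genes fell and 17% rose. The median log2 fold change was -0.35, against 0.01 over all genes. ASGR1 and ASGR2, the 2 subunits of the asialoglycoprotein receptor, had log2 fold changes of -1.71 ± 0.16 and -1.39 ± 0.14 (limma adjusted p = 1.2e-08 and 3.9e-08). Those of the coagulation factor gene F7 and of TTR, a known FOXA target, were -1.47 ± 0.16 and -2.32 ± 0.30 (1.1e-07 and 1.5e-06). TTR intensity was 586, 528 and 84.9 on COP1 siRNA arrays against 1787, 2173 and 1824, with replicate 3 the lowest. Among these COP1 siRNA arrays replicate 3 was also the lowest for FOXA3, APOA1, APOA2, SERPINA1, AHSG and AMBP. It was the highest for ALB, AFP, TF and FGB. ALB and AFP did not pass the test (limma adjusted p = 0.99 and 0.64). ALB was 29207, 31091 and 37186 against 33071, 32178 and 31643, and AFP was 12043, 13712 and 22171 against 13934, 13260 and 15196. With the 2 Huh7 groups fitted alone 8 members of the list passed, a fit for which no share of all genes is given.

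In HepG2, 7 of the 33 rose, 3 fell and 23 did not pass, where 9.06% of all genes rose and 9.52% fell, and the median was 0.10. The fibrinogen genes FGA and FGG rose by 1.57 ± 0.16 and 1.09 ± 0.17 (limma adjusted p = 4.4e-08 and 4.2e-05) and VTN, vitronectin, by 0.98 ± 0.12 (7.6e-07), while the glucose transporter gene SLC2A2 had a log2 fold change of -1.24 ± 0.13 (9.6e-08). On the arrays labelled Hep3B 0 of 33 changed by limma, where 16.3% of all genes did. Of the 41 with a probe, 26 were above background on no control array there and 27 on no COP1 siRNA array. For most of the list no change could thus be measured there.

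Of 16 biliary and progenitor markers, 15 had a probe and 14 were tested. Their counts stand beside shares over all genes of 15.2% lower and 17% higher in Huh7, 9.52% and 9.06% in HepG2, and 16.3% in either direction in Hep3B. In Huh7 1 of 14 fell and 0 rose, and that was SOX9, a factor of bile duct cells and progenitors (log2 fold change -0.91 ± 0.13, limma adjusted p = 8.3e-06). The count was 5 without COP1 siRNA replicate 1, 3 without its replicate 2 or 3, and 2 without control replicate 1 or 3 or without HepG2 COP1 siRNA replicate 3. The shares above do not apply to these fits. In HepG2 SPP1, or osteopontin, and the surface glycoprotein gene CD24 had log2 fold changes of -2.17 ± 0.11 and -0.55 ± 0.17 (limma adjusted p = 2.4e-13 and 0.025). That of CFTR, a chloride channel of bile duct cells, was 0.47 ± 0.13 (limma adjusted p = 0.013). CFTR was above background on 0 control and 3 COP1 siRNA arrays of HepG2, and the bound for its rise was at least 1.10-fold. On the arrays labelled Hep3B CD24 rose by 0.62 ± 0.17 (limma adjusted p = 0.013). The median log2 fold change of the list was -0.0094 in Huh7 and -0.06 in each of the other lines.

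Beside the Huh7 falls stand the 16 markers of fibroblasts, endothelium and leukocytes. Their summed intensity was 2235 to 2484 on Huh7 control arrays and 729 to 1196 on COP1 siRNA arrays, and 10 of 16 were above background on 0 control arrays against 3 on 0 COP1 siRNA arrays. On Huh7 control arrays most of the sum was CD14, which hepatocytes also express, at 1737 ± 157, against 387 ± 200 on COP1 siRNA arrays (SD, n = 3 each). In HepG2 the sums were 988 to 1140 and 976 to 1371, and on the arrays labelled Hep3B 1046 to 1239 and 974 to 1219. The part of these markers in the results was not tested.

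**Figure D4:**
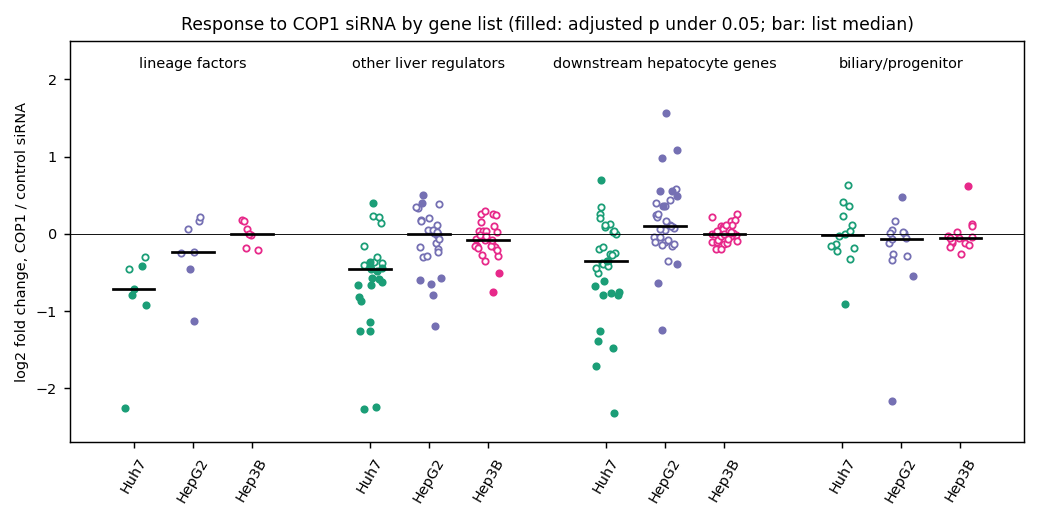
Log2 fold change of COP1 siRNA against control siRNA (y axis) of each tested gene of the lineage factors, the other liver regulators, the downstream hepatocyte genes and the biliary and progenitor markers, in each line (x axis). Filled points have an adjusted p under 0.05 and bars mark list medians, which in Huh7 are -0.71, -0.45, -0.35 and -0.0094.

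Genes with a pattern like that of each factor were named by the smallest root mean square difference of the 6 group means, each gene centred on its own average, on the log2 scale. FOXA1 was followed most closely by ITIH2, a hyaluronan-associated plasma protein gene, at 0.06, and next by SLC13A5, a citrate transporter gene, at 0.19, over a span of 5.64 between its highest and lowest group. FOXA2 was followed by PSAT1 of serine synthesis, at 0.11 over a span of 7.12, and by A1CF, the RNA-binding partner of the apolipoprotein B editing enzyme, at 0.22. FOXA3 was followed by TST, a mitochondrial sulfurtransferase gene, at 0.24 and INHBE, an inhibin subunit gene, at 0.29, over a span of 4.80. NR5A2 was followed by FAM89A at 0.10 and the Krüppel-like factor gene KLF9 at 0.12 over a span of 3.94. PROX1 had no gene nearer than HOOK1 and CHKA, both at 0.32 over a span of 4.16. The dim factors had small spans, 1.44 for ONECUT1 with MAST4 and PLGLB1 nearest at 0.04 and 0.06, and 1.47 for GATA4 with DMAC2 and ZMAT5 nearest at 0.08 and 0.09. The groups share arrays and lines, so these likenesses describe 6 group means and are no test.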

How the data were processed

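RNA from siRNA-treated cells was hybridized to 22 Illumina HumanRef-8 v3 arrays and read with GenomeStudio 2009.1, per the submitters' processing notes. The deposited bead intensity per probe was already background-subtracted (23.7% of values below 0) and quantile-normalized, as the values show, and how the authors did so is not given in the sources used here. Another table, whose 44 per-sample columns match no label, was not used here. Intensities were corrected with normexp (limma 3.58.1, R 4.3.3, offset 50), log2-transformed and quantile-normalized. Probes above 21.8, the 0.98 quantile of the sizes of negative values, on at least 3 arrays were kept (16563 of 24526). The brightest probe stood for each gene. Of all probes, 21834 had a symbol, updated through RefSeq identifiers of GRCh38.p14.

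One limma model with 6 group means gave all contrasts, with 16 residual degrees of freedom, an adjusted p under 0.05 (Benjamini and Hochberg, two-sided) and a test on simulated data. The simulated data gave each gene the same spread in every line, so that test does not cover the wider spread of Huh7. Array number limits precision. Same-numbered COP1 siRNA and control arrays correlated in their deviations at -0.28 to -0.0071 in Huh7, -0.08 to 0.10 in HepG2 and -0.25 to -0.03 in Hep3B, so numbers were not taken as pairs. Members, lists and tests were chosen with earlier results of these data known. Named genes are the members, COP1, up to 4 changed genes of lowest adjusted p in each list and line, cell type markers, and the 2 genes most like each factor. Alternatives covered background correction, normalization, filter, probe choice, weights, block and arrays left out.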

Additional observations from a re-analysis of the deposited data

Results flagged for a closer look

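By limma's test of the difference itself, the change in measured level after COP1 siRNA differed between lines for 6 of the 7 factors. Over all genes, 34.1% passed the F test over the 3 lines. By pair, 26.1% of all genes differed for HepG2 minus Huh7, 14.7% for Hep3B minus Huh7 and 19.8% for Hep3B minus HepG2. Differences are in log2 fold change, the first line minus the second. For FOXA3 they were 2.01 for HepG2 minus Huh7 and 2.43 for Hep3B minus Huh7 (adjusted p = 3.1e-06 and 2.2e-07), and for FOXA2 they were 0.68 and 0.91 (0.0047 and 6.0e-04). For FOXA1 the difference was 0.77 for Hep3B minus Huh7 (0.020), a call lost with the replicate block (0.052) and without Huh7 COP1 siRNA replicate 1 (0.054) or 2 (0.052) or Huh7 control replicate 2 (0.056). For NR5A2 and GATA4 it was 0.85 and 0.63 for HepG2 minus Huh7 (0.0046 and 0.0088). For PROX1 it was -0.68 for HepG2 minus Huh7 and 1.30 for Hep3B minus HepG2 (0.047 and 3.1e-04). The first of these did not pass in 23 of 34 alternatives, with an adjusted p of up to 0.32. FOXA2, FOXA3, PROX1 and NR5A2 lay at background on the arrays labelled Hep3B, so for these the differences that involve Hep3B hold no measured response of that line. FOXA1 was dim there, at a mean intensity of 47.5 in control and 53.5 in COP1 siRNA cells. In HepG2 NR5A2 lay near background, at 22.7 and 26.2, so a fall there could hardly have been measured.

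Of 28 combinations of a factor and a group of 4 arrays, the 17 with at least 1 array above background were checked for an array far from the others, and 0 had one. The other combinations, and groups of 3 arrays as in Huh7, were not checked in this way.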

How the results depend on the processing

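Shares over all genes are given for the main fit only, so the counts of the alternatives have none beside them. The number of factors that differed between control cells was the same in every alternative run. Of 5 factors changed in Huh7, 2 passed when that line was fitted alone, and 4 to 6 with each array left out in turn. Of 2 in HepG2, 1 passed with an offset of 16, at an adjusted p under 0.01 and without the arrays labelled Hep3B, the last chosen after seeing the data, and 1 to 2 with each array left out. With the replicate number as a block, a number the groups merely share, 1 passed in HepG2, where FOXA1 was lost (limma adjusted p = 0.061), and 5 passed in Huh7. Hep3B stayed at 0 throughout. Of the differences between lines, that of FOXA1 between Hep3B and Huh7 (limma adjusted p = 0.020) was lost with the block (0.052) and without Huh7 COP1 siRNA replicate 1 (0.054) or 2 (0.052) or Huh7 control replicate 2 (0.056). With array weights 4 factors differed between HepG2 and Huh7, 5 between Hep3B and Huh7 and 4 between Hep3B and HepG2.

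Of the other liver regulators in Huh7, 19 changed, against 5 from that line on its own, 12 with array weights and 11 at 0.01 (13 to 19 with arrays left out). In HepG2 the count of 7 became 6 to 12 with arrays left out, the highest without Huh7 COP1 siRNA replicate 3, and in Hep3B the count of 2 became 5 with the line alone, 8 with weights, 1 with the block and 1 at 0.01 (1 to 4 with arrays left out). Of the downstream hepatocyte genes, 13 in Huh7 became 8 with the line alone (11 to 15 with arrays left out), 10 in HepG2 became 6 at 0.01 (8 to 15), and 0 in Hep3B became 1 with weights. Of the biliary markers, 1 in Huh7 became 2 with an offset of 16 and 2 with cyclic loess (1 to 5 with arrays left out), 3 in HepG2 became 1 at 0.01, and 1 in Hep3B became 0 at 0.01 (0 to 1). Fitting a line alone leaves fewer arrays and also replaces the shared spread by that line's own. Fitted so, a gene's median residual SD was widest for Huh7, at 0.23, against 0.16 for HepG2 and 0.14 for Hep3B. With the line alone the count of regulators went down for Huh7 and up for Hep3B. The causes of all these shifts were not tested. No result changed direction past the threshold. Dim probes limit GATA4 and ONECUT1 in all lines, NR5A2 in HepG2 and most factors in Hep3B.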
